A study of Mus musculus with 32 samples.

Results

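Broad HNF4A binding sites of germ-free mice that were weakly kept after colonization were examined in peak lists from jejunal intestinal epithelial cells (IECs). Peaks of 8 HNF4A ChIP-seq libraries were merged into 45552 sites wherever they shared at least 1 bp. Of these sites, 23049 were called in all 4 libraries from the germ-free group that received a high-fat meal (GF+HFM). Each site was ranked by its widest peak among the called sites of each GF+HFM list, and the 25% of sites with the highest mean width percentile, 5763 in all, are called broad here. The 1355 broad sites called in at most 2 of the 4 lists from colonized animals that received this meal (CV+HFM) are the weakly kept sites. They were 23.5% of the broad sites, while 2431 broad sites, or 42.2%, were called in all 4 CV+HFM lists and are named fully kept. GF+HFM widths and CV+HFM calls chose the sites, so both are given as a description for these sites. They were tested only in a library that had been left out of the choice.

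All mice were male C57BL/6J animals of 10 to 12 weeks that were reared germ-free. CV animals received a conventional fecal microbiota by gavage 14 days before collection, and both groups received an egg yolk emulsion with BODIPY-labeled fatty acids 2 hours before the jejunum was taken. Villus epithelium was scraped from the tissue after EDTA treatment, so the preparation was mostly villus cells with some crypt and mesenchymal cells, and HNF4A was precipitated with Abcam ab41898. In bulk chromatin of this kind, fewer cells with HNF4A at a site and less HNF4A per cell cannot be told apart. The lists hold positions only, so sequencing depth is unknown and no peak strength could be compared.

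HNF4A is a nuclear receptor that binds DNA as a homodimer and, with its paralog HNF4G, maintains the enterocyte program of absorption, lipid handling and brush border assembly. Its preferred element is CAAAGTCCA, which sets it apart from PPAR and RXR dimers that share the related direct repeat with 1 base between half-sites (DR1). In the mouse intestine HNF4A occupies promoters and enhancers together with CDX, GATA and HNF1 factors.

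The central 300 bp of 5 sites are printed here because the weakly kept and fully kept sites differed in how often this element lay near the site center. All are from the plus strand of mm9 (NCBIM37), in lower case, with matches to CAAAGTCCA or its reverse complement TGGACTTTG with at most 1 mismatch in capitals. The first 3 are weakly kept: the widest of all (Ovol1), a wide site in an intron (Slc9a3), and a site called in no CV+HFM list (Slc25a36). The last 2 are fully kept: the widest one (Irf1) and the widest one with an exact match in its window (Zfp36l2), which was chosen after the values were seen.
Ovol1 site, chr19:5561720-5562019: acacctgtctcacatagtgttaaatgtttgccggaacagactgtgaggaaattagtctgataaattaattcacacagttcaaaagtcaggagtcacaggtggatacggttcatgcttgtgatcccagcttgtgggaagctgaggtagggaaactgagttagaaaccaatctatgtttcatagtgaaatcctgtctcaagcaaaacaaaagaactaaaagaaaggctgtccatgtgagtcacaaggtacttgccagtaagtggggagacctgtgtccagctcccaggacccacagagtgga
Slc9a3 site, chr13:74276778-74277077: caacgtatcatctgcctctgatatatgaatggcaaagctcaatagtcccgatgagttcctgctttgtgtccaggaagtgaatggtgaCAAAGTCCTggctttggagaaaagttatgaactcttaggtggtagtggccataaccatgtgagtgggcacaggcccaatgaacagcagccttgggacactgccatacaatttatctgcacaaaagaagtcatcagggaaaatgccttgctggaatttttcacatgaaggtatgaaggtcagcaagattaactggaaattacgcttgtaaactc
Slc25a36 site, chr9:97041338-97041637: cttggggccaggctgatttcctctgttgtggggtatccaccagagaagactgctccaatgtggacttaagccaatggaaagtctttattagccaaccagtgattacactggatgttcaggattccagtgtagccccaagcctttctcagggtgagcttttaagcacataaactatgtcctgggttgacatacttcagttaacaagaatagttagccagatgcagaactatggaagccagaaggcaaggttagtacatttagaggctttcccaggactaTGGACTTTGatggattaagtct
Irf1 site, chr11:53571924-53572223: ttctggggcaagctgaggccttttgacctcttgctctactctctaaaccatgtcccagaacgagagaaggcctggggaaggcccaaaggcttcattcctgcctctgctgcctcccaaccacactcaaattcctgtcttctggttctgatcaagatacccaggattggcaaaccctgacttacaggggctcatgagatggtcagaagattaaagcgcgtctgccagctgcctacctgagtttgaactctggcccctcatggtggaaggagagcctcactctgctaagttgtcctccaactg
Zfp36l2 site, chr17:84536790-84537089: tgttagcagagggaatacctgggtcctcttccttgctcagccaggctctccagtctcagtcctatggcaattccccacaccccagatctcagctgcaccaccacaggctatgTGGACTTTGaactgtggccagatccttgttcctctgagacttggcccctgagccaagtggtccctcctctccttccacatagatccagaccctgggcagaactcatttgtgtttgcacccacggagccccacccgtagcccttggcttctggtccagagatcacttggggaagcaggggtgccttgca

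The Ovol1 and Irf1 windows hold no such match. In the Slc9a3 window CAAAGTCCT, 1 mismatch from the element, lies at chr13:74276865-74276873, 58.5 bp from the center. The exact match of the Slc25a36 window lies near its edge at chr9:97041616-97041624, 132.5 bp from the center, whereas that of the Zfp36l2 window lies 33.5 bp from the center at chr17:84536902-84536910. A match of letters is a description and not a shown binding event.

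Most weakly kept sites were those that 2 short CV+HFM lists missed. The 4 GF+HFM lists held 31061 to 36846 peaks, and the CV+HFM lists held 29345, 9206, 21033 and 4533 peaks in replicates 1 to 4. Replicate 1 called 99.7% of the broad sites and replicate 3 called 98.3%, whereas replicate 2 called 74.2% and replicate 4 called 44.7%. Of the 1355 weakly kept sites, 1248 (92.1%) were called by replicates 1 and 3 and missed by 2 and 4, and 80 were called by replicate 1 alone. The rest were 9 sites called by replicates 1 and 2, 7 by replicate 3 alone, 3 by replicates 1 and 4, 1 by replicates 2 and 3, and 7 by none. With a limit of at most 1 of 3 CV+HFM lists, 104 sites were weakly kept without replicate 2 and 97 without replicate 4, against 1354 without replicate 1 and 1343 without replicate 3. Colonization and list length cannot be told apart here, since the 2 shortest lists were both from CV+HFM mice.

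**Figure D1:**
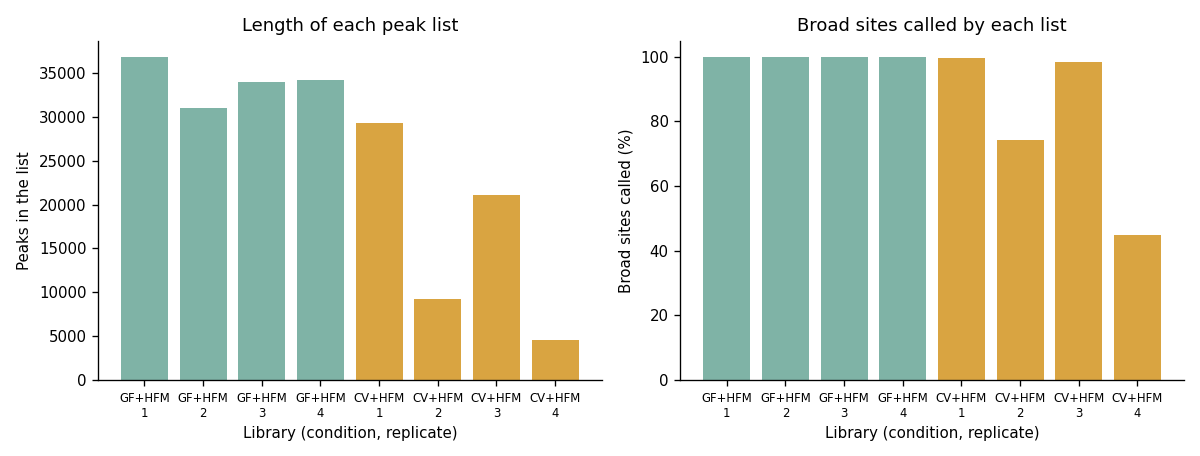
Bars give the number of peaks in each of the 8 HNF4A lists (left) and the share of the 5763 broad sites that each list called, in percent (right), by condition and replicate. The GF+HFM bars on the right are 100% because the sites were chosen as called in all 4, and CV+HFM replicates 2 and 4 have both the shortest lists and the lowest shares, 74.2% and 44.7%.

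The broad sites were called in more CV+HFM lists than germ-free sites as a whole. Among all 23049 sites called in every GF+HFM list, 61.8% were called in at most 2 CV+HFM lists, 24.0% in at most 1 and 5.51% in 0. For the broad sites these shares were 23.5%, 1.63% (94 sites) and 0.121% (7 sites). When every list was cut to its 4533 widest peaks, the length of the shortest, 467 broad sites remained, of which 85 were called in at most 2 CV+HFM lists and 284 in all 4. This setting was chosen after the data were seen, and it keeps only the widest peaks of the longer lists.

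Weakly kept sites were broad in every germ-free mouse, but less so than fully kept sites. Their median width was 621, 512, 756 and 865 bp in GF+HFM replicates 1 to 4, at median width percentiles of 89.2, 86.4, 88.4 and 88.2. Fully kept sites had median widths of 693, 581, 836 and 956 bp and percentiles of 92.5, 91.4, 91.8 and 91.5 in the same lists. Among the weakly kept sites the mean GF+HFM percentile ranged from 78.8 to 99.7 with a median of 85.2, against a median of 90.6 for fully kept sites. The SD of the 4 percentiles of a site was 7.24 in the median weakly kept site and 4.30 in the median fully kept site. At the width threshold, the Epb4.1l1 site (471, 448, 778 and 611 bp in GF+HFM replicates 1 to 4) lay just inside and the Gm13018 site (504, 380, 628 and 828 bp) just outside, both at a mean percentile of 78.8.

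The order held in a GF+HFM library that took no part in choosing the sites. Sites were chosen from 3 GF+HFM lists and their width percentile was read in the list left out. Fully kept sites exceeded weakly kept sites in median percentile by 5.62, 12.4, 5.54 and 5.89 in replicates 1 to 4 (mean 7.36 ± 3.36, SD, n = 4; higher in 4 of 4; exact sign-flip permutation test, two-sided, p = 0.13, which is the smallest p that 4 libraries allow; Benjamini-Hochberg p = 0.156 over 5 comparisons). The choices share GF+HFM lists, CV+HFM calls and sites, so the 4 differences are not independent. Replicate 2 stood apart from the other 3, and without it the mean was 5.68. In the same way, sites chosen from 3 CV+HFM lists were read in the one left out. The call share of fully kept sites exceeded that of weakly kept sites by 1.03 points in replicate 1, 84.8 in replicate 2, 6.48 in replicate 3 and 53.9 in replicate 4 (mean 36.6 ± 40.0, SD, n = 4; exact permutation p = 0.13, two-sided; Benjamini-Hochberg p = 0.156). These sites numbered only 104 weakly kept when replicate 2 was left out and 97 when replicate 4 was left out. CV+HFM replicates 1 and 3 called 99.7% and 98.3% of all broad sites, so their differences had little room. The large differences, in replicates 2 and 4, are those of the short lists. The test therefore cannot separate weakly kept sites from sites that short lists miss, and its 4 values also share lists and sites.

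Where a CV+HFM list called a weakly kept site, its peak was narrower and lay further from the germ-free center. In CV+HFM replicate 1, which called 1340 of the 1355, the median width was 502.5 bp at a percentile of 82.9, against 615 bp and 91.1 for fully kept sites. In CV+HFM replicate 3, which called 1256, the median width was 345.5 bp at a percentile of 69.1, against 478 bp and 88.6. The ratio of the CV+HFM width to the mean GF+HFM width of the same site was 0.730 in replicate 1 and 0.490 in replicate 3 for weakly kept sites, and 0.810 and 0.630 for fully kept sites. The peak midpoint lay a median of 50.5 bp (replicate 1) and 76.25 bp (replicate 3) from the GF+HFM center, against 42.5 and 46.5 bp. Weakly kept sites ranked lower than fully kept sites also in the 2 lists that called nearly all of them. These CV+HFM ranks come from the same lists as the calls that chose the sites and carry no test.

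**Figure D2:**
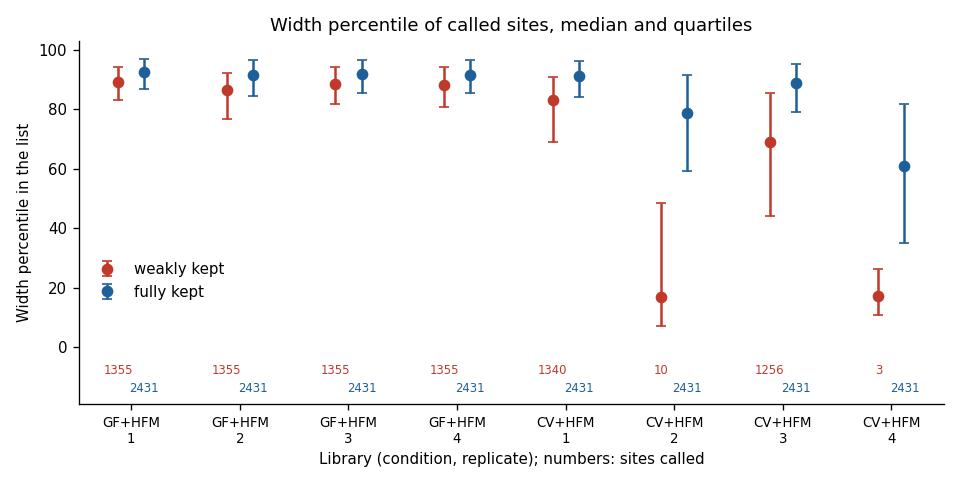
Points give the median width percentile of called weakly kept (red) and fully kept (blue) sites in each list, bars the quartiles, and the numbers below the count of sites called. Weakly kept sites sit close under fully kept sites in the 4 GF+HFM lists (86.4 to 89.2 against 91.4 to 92.5) and further below in CV+HFM replicates 1 and 3 (82.9 and 69.1 against 91.1 and 88.6); in CV+HFM replicates 2 and 4 only 10 and 3 weakly kept sites were called.

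The HNF4 element was rarer in weakly kept sites. CAAAGTCCA, on either strand and without mismatch, was present in the central 300 bp of 56 of 1355 weakly kept sites (4.13%; Wilson 95% interval 3.20 to 5.33), 6.83% of the broad sites called in 3 CV+HFM lists, and 239 of 2428 fully kept sites with reference sequence (9.84%; 8.72 to 11.1). Across all sites called in the 4 GF+HFM lists the share was 7.50%. The difference between weakly and fully kept sites was -5.71 percentage points (Newcombe interval -7.27 to -4.07). With at most 1 mismatch the shares were 35.8% and 48.5%. These intervals cover the counting of sites only.

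Sequence was not used to choose the sites, so this difference was also compared within each CV+HFM list. Broad sites missed by a list held the element less often than those it called, with differences of -0.801, -3.37, -4.51 and -4.55 points in replicates 1 to 4 (mean -3.31 ± 1.76 points, SD, n = 4; lower in 4 of 4). The exact sign-flip permutation test, two-sided, gave p = 0.13, the smallest possible, and a Benjamini-Hochberg p of 0.156 over 5 comparisons. The 4 values rest on unequal numbers of missed sites, 15, 1489, 99 and 3185, and the same sites enter several of them.

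The difference was also present within steps of width and of base composition. When the broad sites were divided into 4 equal steps of mean width percentile, the element was in 4.77% of weakly kept and 13.1% of fully kept sites in the narrowest step, 3.83% and 11.4% in the next, 3.56% and 11.1% in the third, and 3.97% and 6.48% in the widest. The intervals of weakly and fully kept sites overlapped in the widest step, which held 151 weakly kept sites. In 3 steps of GC content the shares were 4.95% and 12.4%, 3.96% and 10.0%, and 2.90% and 7.60%. Over sites more than 1 kb from a gene start the difference was -5.51 points, and in windows placed at the CV+HFM replicate 1 peak it was -6.23 points.

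The motif share followed the number of CV+HFM lists among narrower sites too. Of the narrower sites called in 0, 1, 2, 3 and 4 CV+HFM lists, 4.69%, 6.58%, 6.69%, 8.33% and 18.1% held the element. For broad sites the shares were 2.3% of 87 sites called in 1 list, 4.20% of 1261 called in 2, 6.83% of 1977 called in 3 and 9.84% of 2428 called in 4. Of the 7 broad sites called in 0 lists, 1 held it, the Slc25a36 site. At 2 lists, broad sites held the element less often than narrower sites (intervals 3.23 to 5.46 and 6.15 to 7.28). The gap was larger at 4 lists (8.72 to 11.1 and 15.8 to 20.6), so it was not particular to weakly kept sites. A fixed window of 300 bp also covers more of a narrow site than of a broad one.

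**Figure D3:**
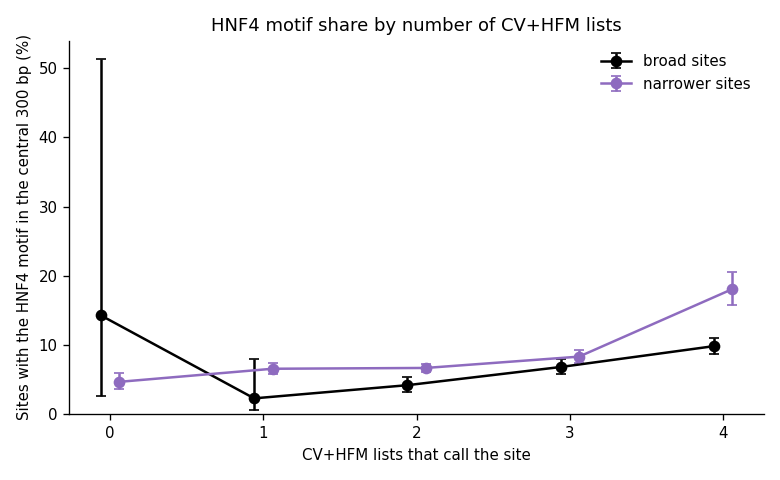
Points give the share of sites, in percent, with CAAAGTCCA in the central 300 bp by the number of CV+HFM lists that called the site, for broad sites (black) and for the narrower 75% of sites (purple), and bars the Wilson 95% intervals. The share is highest at 4 lists in the narrower sites (18.1%) and, from 1 list upward, in the broad sites (9.84%); the black point at 0 lists rests on 7 sites.

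The element also lay less centrally in weakly kept sites. In windows of 600 bp, 83 weakly kept and 315 fully kept sites held a match, at a median distance of 122.5 and 74.5 bp from the center, and 20.5% and 35.6% of these matches lay within 50 bp of it. Within the first 50 bp there were 0.1255 matches per kb in weakly kept, 0.228 in sites called in 3 CV+HFM lists and 0.465 in fully kept sites. From 150 to 200 bp the values were 0.111, 0.111 and 0.132. The difference between the groups was largest in the first 50 bp and smaller beyond 150 bp. In the stretch shared by the widest peaks of all 4 GF+HFM lists, matches were at 0.132 per kb in weakly kept sites (82 matches) and 0.238 per kb in fully kept sites (334 matches).

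**Figure D4:**
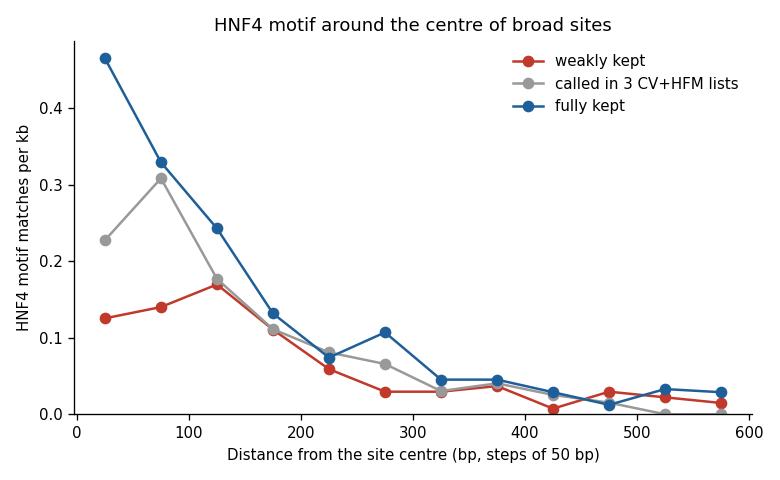
Lines give matches to CAAAGTCCA per kb of sequence by distance from the site center in steps of 50 bp, for weakly kept sites (red), broad sites called in 3 CV+HFM lists (gray) and fully kept sites (blue). The lines are furthest apart in the first step (0.1255, 0.228 and 0.465 matches per kb) and less far apart from 150 bp on.

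Elements of other factors differed less between the groups. With the DR1 element shared with PPAR and RXR (both strands, at most 2 mismatches) the shares were 14.9% in weakly kept and 16.6% in fully kept sites, a difference of -1.65 points with an interval from -4.01 to 0.803. Some elements were more frequent in weakly kept than in fully kept sites: TTTATNG of CDX factors (17.2% against 13.8%), AGATAA of GATA factors (22.7% against 19.7%), the HNF1 element with at most 2 mismatches (2.95% against 1.61%), and TGANTCA of AP-1 (14.6% against 11.9%), all with intervals of the difference above 0. Over all sites called in the 4 GF+HFM lists these shares were 15.9%, 22.5%, 2.69% and 15.3%, so for each of these the weakly kept sites lay nearer to all sites than the fully kept sites did. The first 3 are rich in A and T, and GC content in the same windows was lower in weakly kept sites, with a median of 48.0% against 50.3%. In the least GC-rich of 3 steps all of these were more frequent in weakly kept sites, by 2.04 (CDX), 3.49 (GATA), 2.72 (HNF1) and 2.67 (AP-1) points. In the middle step the differences were 2.11, -2.38, -0.164 and 3.75 points in the same order. The most GC-rich step gave -0.294, -0.280, -0.0521 and -0.112 points. Whether base composition accounts for these differences was not tested. Intervals of the difference for GGGCGGG (KLF/SP), CCGGAAG (ETS), TGTTTAC (FOXA) and the NRF1 and CTCF elements included 0. GC content of missed minus called sites was -2, -2, -1 and -1 percentage points in CV+HFM replicates 1 to 4 (mean -1.5 ± 0.577, SD, n = 4; exact permutation p = 0.13, two-sided; Benjamini-Hochberg p = 0.156).

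Position relative to genes barely differed between weakly and fully kept sites. The center lay within 1 kb of a gene start in 228 weakly kept sites (16.8%) and 373 fully kept sites (15.4%), a difference of 1.46 points with an interval from -0.948 to 3.96. Weakly kept sites had their center in an intron in 49.2%, between genes in 41.4%, in a UTR exon in 4.13%, in a coding exon in 2.95% and in a non-coding exon in 2.29%. Fully kept sites had 47.0%, 43.5%, 4.49%, 2.92% and 2.06%. Within the CV+HFM lists, missed minus called sites at gene starts gave -2.44, 0.750, 9.65 and 1.05 points in replicates 1 to 4 (mean 2.25 ± 5.18, SD, n = 4; exact permutation p = 0.625, two-sided), which is within the spread between lists. Both groups had a median of 4 other germ-free sites within 50 kb, and the nearest fully kept site was a median of 90738 bp from a weakly kept site and 70506 bp from another fully kept site. On chromosome X lay 8 weakly kept sites (0.590%) and 2 fully kept sites (0.0824%), against 1.10% of all sites called in the 4 GF+HFM lists.

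The 94 sites called in at most 1 CV+HFM list, which do not rest on the 2 short lists alone, had a larger share at gene starts. Their share at gene starts exceeded that of fully kept sites by 9.11 points, and their motif share was lower by 6.65 points. Of the 94, 80 were called by CV+HFM replicate 1 alone. Without CV+HFM replicate 2 or replicate 4 the gene-start difference was 9.80 and 8.18 points, but those sets contain the same 94 sites and are not separate support. These differences were not tested and rest on 94 to 104 sites.

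The widest weakly kept site was 2364 bp long at chr19:5560801-5563164, with its center 1294 bp upstream of Ovol1, a zinc finger regulator of epithelial differentiation. Its widest peaks were 1206, 1137, 2013 and 2117 bp in GF+HFM replicates 1 to 4 and 1362 and 1041 bp in CV+HFM replicates 1 and 3, and CV+HFM replicates 2 and 4 held no peak there. It ranked at the 99.9th and 99.7th percentile of the 2 CV+HFM lists that called it, as high as in the germ-free lists. A similar rank was kept in intron 1 of Slc9a3, the apical sodium-proton exchanger NHE3 (chr13:74276196-74277848), with 1356, 938, 1262 and 1653 bp in GF+HFM and 759 and 987 bp in CV+HFM replicates 1 and 3. Trip10, a membrane-curving Cdc42 effector, had its site in intron 1, 334 bp into the gene (chr17:57388513-57390027), at 1171, 986, 1379 and 1438 bp in GF+HFM and 1036 and 588 bp in CV+HFM replicates 1 and 3.

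The Usp45, Specc1 and Pomp sites, also among the 10 widest, fell further in width percentile in at least 1 CV+HFM list. Within the span of Usp45, a deubiquitinase (chr4:21698114-21699697), the widths were 1389, 848, 1444 and 1547 bp in GF+HFM and 364 and 275 bp in CV+HFM replicates 1 and 3, at percentiles of 60.7 and 49.0. A site 9127 bp beyond the end of Specc1, which encodes a cytoskeletal protein (chr11:62045642-62047319), fell in rank in 1 list only, with 1224, 1065, 1439 and 1602 bp in GF+HFM, 1070 bp in CV+HFM replicate 1 and 311 bp in replicate 3. At the 3′ end of Pomp, a proteasome assembly factor (chr5:148687292-148688674), CV+HFM replicate 1 held 1268 bp and replicate 3 held 234 bp, against 1195, 1100, 1209 and 1383 bp in GF+HFM. The remaining 4 of the 10 lay near Rassf6, Tmprss2, Tomm20 and 4732418C07Rik, at mean GF+HFM percentiles of 98.4 to 98.9. None of the 10 had an exact element in its central 300 bp, but only 4.13% of all weakly kept sites had one, so the 10 did not stand apart.

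The 7 sites called in no CV+HFM list were not the broadest ones. Their mean percentiles ran from 78.9 to 84.2, and several were wide in 3 germ-free lists but not in GF+HFM replicate 2. A site whose edge lay 22577 bp before Fchsd2, an endocytic adaptor gene (chr7:108233471-108234712), had 652, 306, 1211 and 1212 bp in GF+HFM replicates 1 to 4. Near Slc25a36, a mitochondrial nucleotide carrier gene (chr9:97040978-97041916), the widths were 664, 339, 931 and 871 bp. A further 4 sites lay at the 3′ end of the keratin gene Krt19 (620, 393, 703 and 839 bp), in intron 2 of the actin-binding gene Rai14 (399, 431, 820 and 799 bp), at the start of the peptidase gene Dpp8 (782, 594, 426 and 682 bp) and, by its edge, 1375 bp before the terminal uridylyltransferase gene Zcchc6 (532, 502, 550 and 677 bp). Replicate 2 also had the lowest median peak width of the GF+HFM lists, 298 bp against 313 to 464 bp.

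By comparison, the 5 widest fully kept sites lay near Irf1, 1110002J07Rik, Sugp1, Tnni1 and Tymp, at mean percentiles of 99.93 to 99.98. The Irf1 site (chr11:53570749-53573773), upstream of an interferon-regulated transcription factor, measured 2025, 2096, 2688 and 2446 bp in GF+HFM and 2305, 398, 1205 and 296 bp in CV+HFM replicates 1 to 4. Even here replicates 2 and 4 held far narrower peaks than replicates 1 and 3.

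Weakly kept sites were spread over many genes. Their nearest genes numbered 1186, of which 1045 had 1 weakly kept site, 120 had 2 and 21 had 3 or more. Fully kept sites had 1953 nearest genes. In all, 382 genes had both kinds, 32.2% of the genes of weakly kept and 19.6% of the genes of fully kept sites. Whether this overlap is high or low for sites of these numbers was not tested. The most, 9, fell in Gm20388, a gene model that spans chr8:122434741-126869622 across many other genes and holds 41 broad sites, 15 of them fully kept. Dhrs3, a retinaldehyde reductase gene, had 4 weakly kept sites among 5 broad ones, 3 of them in intron 2 and 1 in intron 5. Atp1b1, the beta subunit of the sodium pump, had 3 and no fully kept site. Rxra, the shared partner of PPAR and other nuclear receptors, had 3 weakly kept and 4 fully kept sites among 8 broad ones.

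Sites near genes of enterocyte functions, regulators, cell growth and other cell types were read from 20 gene lists with 459 symbols. Of the 376 broad sites whose nearest gene was listed, 83 were weakly kept and 176 fully kept, close to the shares of all broad sites (23.5% and 42.2%). The 83 sites belonged to 67 genes, of which 31 also had a fully kept site. Of the 83, 74 were called by CV+HFM replicates 1 and 3 and missed only by 2 and 4, against 92.1% of all weakly kept sites. The exact element was in 2 of the 83, among them the site near Myo1a, against 4.13% of all weakly kept sites. These counts describe the lists, and no list was tested against other genes.

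Among the lipid genes, weakly and fully kept sites stood side by side. Of 30 broad sites at genes of chylomicron assembly and triglyceride resynthesis, 6 were weakly kept (20%) and 18 fully kept, and Apoa1, Apoc2, Dgat2, Mogat2 and Sar1b had both kinds. At the start of Dgat2, which makes triglyceride from diacylglycerol, the site covered exon 1 (chr7:106330415-106331924), with 1201, 927, 807 and 1431 bp in GF+HFM and 460 and 422 bp in CV+HFM replicates 1 and 3. For fatty acid uptake, binding and activation, 5 of 12 broad sites were weakly kept (41.7%) and 4 fully kept. Over all broad sites the shares were 23.5% and 42.2%, and this list is small. Acsl1 and Acsl5 had both kinds. The widest weakly kept site of this list was in intron 1 of Acsl5, an acyl-CoA synthetase gene (chr19:55331988-55334026). It measured 886, 634, 1956 and 2024 bp in GF+HFM and 736 and 306 bp in CV+HFM replicates 1 and 3. The liver-type fatty acid binding protein gene Fabp1 and the lipid scavenger receptor gene Scarb1 had weakly kept sites and no fully kept one.

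Fatty acid oxidation and PPARA target genes had 7 weakly kept sites of 30 broad ones (23.3%) and 18 fully kept, near the share of all broad sites. In intron 2 of Ppara, the receptor that drives fatty acid oxidation, 1 weakly kept site (chr15:85601729-85602939) measured 1079, 580, 634 and 1211 bp in GF+HFM and 540 and 517 bp in CV+HFM replicates 1 and 3. The coactivator genes Ppargc1a and Ppargc1b had 2 weakly kept sites each and also fully kept ones. Cholesterol genes had 2 weakly kept and 1 fully kept site of 8. The higher-ranked of these lay at the start of Npc1l1, the sterol transporter of the brush border (chr11:6129692-6131149), with 579, 566, 1262 and 1425 bp in GF+HFM, 957 bp in CV+HFM replicate 1 and 222 bp in replicate 3.

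Structural and digestive genes of the brush border and genes of cell junctions are read here beside the 23.5% weakly kept and 42.2% fully kept over all broad sites. Digestive enzyme genes had 3 weakly kept of 27 broad sites (11.1%) and 16 fully kept. These 3 were 1 site in intron 2 of the peptidase gene Dpp4 and 2 at the maltase gene Mgam, whose higher-ranked site (chr6:40575973-40576828) measured 553, 678, 800 and 712 bp in GF+HFM and 515 and 529 bp in CV+HFM replicates 1 and 3. Microvillus and actin genes had 8 of 50 (16%) and 26 fully kept. Their widest weakly kept site, upstream of the actin regulator Eps8l3 (chr3:107675170-107676871), measured 898, 568, 922 and 1422 bp in GF+HFM and 456 and 371 bp in CV+HFM replicates 1 and 3. Tight junction and adhesion genes had 8 of 32 (25%) and 8 fully kept, with weakly kept sites at Cdh1, Cgn, Epcam, F11r, Marveld3 and Tjp1. The widest had its edge 95878 bp before Tjp1, the scaffold ZO-1 (chr7:72612003-72613566), with 695, 610, 1564 and 1514 bp in GF+HFM and 823 and 544 bp in CV+HFM replicates 1 and 3.

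For sugar, peptide and amino acid transporters 8 of 33 broad sites were weakly kept (24.2%) and 17 fully kept. Over all broad sites the shares were 23.5% and 42.2%. Slc43a2, a neutral amino acid transporter gene, had 3 weakly kept sites. A wide one lay in intron 9 of the imino acid transporter gene Slc6a20a (chr9:123546902-123548267), with 735, 765, 1311 and 1333 bp in GF+HFM and 334 and 274 bp in CV+HFM replicates 1 and 3. Xenobiotic metabolism and efflux genes had 8 of 30 (26.7%) and 8 fully kept, with weakly kept sites at the efflux pump genes Abcb1a, Abcc2 and Abcg2 and at Cyp3a13, Cyp3a25 (2 sites), Cyp4f14 and Gsta1. Gsta1, a glutathione transferase gene, had 833, 708, 925 and 1061 bp in GF+HFM, 794 bp in CV+HFM replicate 1 and 199 bp in replicate 3 (chr9:78076302-78077362).

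Regulator genes included both kinds as well, beside 23.5% weakly kept and 42.2% fully kept over all broad sites. Nuclear receptor genes had 10 weakly kept of 36 broad sites (27.8%) and 16 fully kept. Hnf4g, the paralog of Hnf4a, had 1 weakly kept site in intron 1 and no fully kept one, and Hnf4a had fully kept sites and no weakly kept one. At the start of Nr5a2, which encodes the receptor LRH-1, the site (chr1:138856711-138857649) kept its rank, with 763, 581, 820 and 939 bp in GF+HFM and 700 and 557 bp in CV+HFM replicates 1 and 3. Intestinal transcription factor genes had 8 of 36 (22.2%) and 16 fully kept. The widest had its edge 8476 bp past the end of Prdm1, a transcriptional repressor gene (chr10:44147211-44148507), with 1014, 544, 1229 and 1191 bp in GF+HFM and 1115 and 557 bp in CV+HFM replicates 1 and 3. Clock genes had 4 of 21 (19.05%) and 13 fully kept, the widest by percentile in intron 1 of the clock repressor gene Per2 (chr1:93350034-93351440), with 714, 636, 1120 and 1084 bp in GF+HFM and 1127 and 503 bp in CV+HFM replicates 1 and 3.

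All 9 broad sites of the antimicrobial and microbe-induced list, near Ciita, Irf1, Nfkbia, Pigr, Saa1, Stat3 and Tnfaip3, were fully kept, where 42.2% of all broad sites were fully and 23.5% weakly kept. The list is small and was not tested, and its broad sites had a median GF+HFM percentile of 82.9 against 88.1 over all broad sites. Respiratory chain genes gave the opposite count on 5 broad sites, 3 weakly kept (at Cox5a, Sdhb and Uqcrc2) and 0 fully kept. At the start of Uqcrc2, a subunit gene of complex III (chr7:127778559-127779530), the widths were 825, 670, 972 and 617 bp in GF+HFM and 633 and 234 bp in CV+HFM replicates 1 and 3. Vesicle traffic and lysosome genes had 2 weakly kept of 14 broad sites (14.3%), in intron 5 of the recycling endosome gene Rab11fip1 (739, 345, 830 and 726 bp in GF+HFM, 559 bp in CV+HFM replicate 1 alone) and at Stx3. These lists are small, and all 3 respiratory chain sites were called by both CV+HFM replicates 1 and 3.

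The stem cell, cell cycle, secretory, non-epithelial and ribosomal protein lists held few broad sites. By the rule 25% of all sites called in every GF+HFM list are broad, and 23.5% of all broad sites were weakly kept. Stem cell, Wnt and Notch genes had 4 broad sites of 42 called in all GF+HFM lists, and cell cycle genes had 3 of 21. None of these was weakly kept, but the counts are too small to compare with these shares and were not tested. Secretory cell genes had 4 of 20, of which 1, in intron 16 of the tuft cell channel gene Trpm5, was weakly kept (439, 346, 679 and 1613 bp in GF+HFM, 491 and 234 bp in CV+HFM replicates 1 and 3). Mesenchymal, endothelial and immune genes had 1 broad site of 14, in intron 4 of the macrophage receptor gene Csf1r, and ribosomal protein genes had 1 of 13, before Rps14, both weakly kept and both called by CV+HFM replicates 1 and 3. The Csf1r site measured 624, 711, 702 and 712 bp in GF+HFM and 425 and 388 bp in CV+HFM replicates 1 and 3, and the Rps14 site 482, 532, 957 and 1131 bp and 545 and 317 bp.

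**Figure D5:**
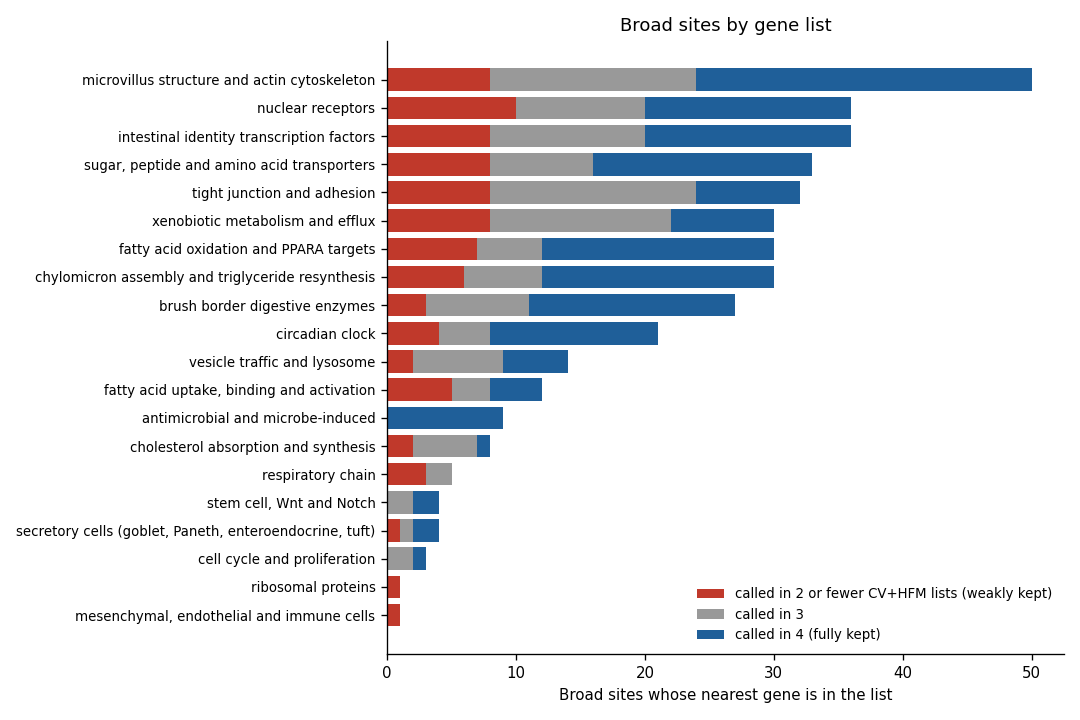
Bars count broad sites whose nearest gene is in each of the 20 lists, split into weakly kept (red), called in 3 CV+HFM lists (gray) and fully kept (blue). The antimicrobial and microbe-induced bar is blue throughout (9 of 9), the respiratory chain bar has no blue (0 of 5), and most longer bars hold all 3 colors.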

How the data were processed

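HNF4A ChIP-seq was analysed in 4 GF+HFM and 4 CV+HFM mice, 8 of the 32 samples of the series; RNA-seq, H3K27ac and other samples were not analysed here. Per the study's methods the authors aligned reads with Bowtie2 to mm9 and called peaks with MACS2 (2.1.1.20160309) against input, with a bandwidth of 300 bp. Each deposited list holds 1 mouse's peaks as other values, namely chromosome, start, end and name, with no strength, p-value or count, so peak width was used for ranking and depth is unknown. The 20 gene lists held 459 symbols, of which 1 had no match. The members and gene lists were chosen with earlier results of these data known.

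Peaks sharing 1 bp were merged. Site centers came from the widest GF+HFM peaks. Genes and sequence came from NCBIM37. Shares have Wilson and differences Newcombe 95% intervals, which cover counting of sites only. Differences within libraries were tested with exact two-sided sign-flip permutation tests over 4 libraries, which cannot reach p = 0.05, since their smallest p is 0.13, with Benjamini-Hochberg adjustment over 5 comparisons. The text names the 10 widest weakly kept sites, all called in no CV+HFM list, the widest per gene list, those of the 5 genes with the most, the 5 widest fully kept sites and the sites at the threshold; other sites named near listed genes and the Zfp36l2 site were chosen after their values were seen. A few sites that this rule takes in are not reported here. Scripts used Python 3.11.15, numpy 2.4.6, pandas 2.3.3, scipy 1.17.1, pysam 0.24.0 and matplotlib 3.10.9 and were checked on simulated data. Alternatives varied the overlap, list length, width rule, limits, windows and libraries.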

Additional observations from a re-analysis of the deposited data

Results flagged for a closer look

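In 3 of 34 groups of 4 libraries examined, 1 library stood apart by Dixon's ratio of its gap to the whole range, above the 95% critical value for 4 samples. Chance flags about 1 in 20 groups. For the difference in width percentile read in the GF+HFM library left out, replicate 2 (12.4 against 5.54 to 5.89) gave a ratio of 0.949. At the Fchsd2 site, called in no CV+HFM list, GF+HFM replicate 2 had the lowest width percentile, with a ratio of 0.841. At the Tomm20 site GF+HFM replicate 1 was lowest, with a ratio of 0.904. The causes were not tested.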

How the results depend on the processing

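Over 10 results and 142 alternatives, 7 reversed in sign and 21 kept their sign but moved beyond the limit set for a change. The other 114 kept their sign and were not counted as moved. No alternative of the 5 results tested over libraries was counted as moved, whatever its size, so for these only the sign was compared. For example, the GC difference within libraries was -0.125 without GF+HFM replicate 4, against -1.5 in the main setting. The width percentile difference read in the GF+HFM library left out was 1.97 with 50% cover, against 7.36. The number of weakly kept sites (1355) was 3519 and of fully kept sites (2431) 7 when a peak had to cover 50% of the merged site, 838 weakly kept with the 25000 widest peaks per list, 324 and 1282 with the widest 10%, 94 weakly kept with a limit of 1 list, and 2643 and 669 with peaks of at least 200 bp. With lists cut to the shortest, chosen after seeing the data, they were 85 and 284. Leaving out 1 library gave 97 to 1820 weakly kept and 2431 to 4264 fully kept sites; CV+HFM replicates 2 (104) and 4 (97) decided the count. The motif difference (-5.71 points) was negative in all 21 alternatives, -21.8 with 50% cover, where 7 fully kept sites remained, and -12.7 with 1 mismatch. The gene-start difference (1.46 points) was 9.11 with a limit of 1 list, -1.82 with peaks of at least 200 bp and -1.44 within 5 kb. With 1 library left out it ranged from -0.520 (GF+HFM replicate 2) to 9.80 (CV+HFM replicate 2), and was 8.18 without CV+HFM replicate 4. The values 9.11, 9.80 and 8.18 rest on largely the same sites. Within libraries the gene-start difference ranged from -0.592 to 6.37, reversing without GF+HFM replicate 1, GF+HFM replicate 2 (-0.385) or CV+HFM replicate 3 (-0.213). The GC difference (-2.33 points) was -3.67 with 50% cover and ranged from -2.67 to -1.67, and within libraries it reversed to 2.08 with the widest 10%. The causes were not tested. Alternatives that compare weakly with fully kept sites were added after seeing the data. No paired analysis was possible because replicate numbers mark different mice and no test compared GF+HFM with CV+HFM libraries.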
